A study of Mus musculus with 2 samples.

Results

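The 51 genes described here encode the machinery that copies DNA: factors that license origins, the replicative helicase, the polymerases, the sliding clamp, enzymes of nucleotide supply and the proteins that restore chromatin behind the fork. They were taken by name and role, from a list drawn up with earlier results of these data known, and are 51 of the 21631 protein-coding genes that RefSeq places on autosomes or the X chromosome. Histone marks were mapped by chromatin immunoprecipitation sequencing in cells from the incisor pulp of CD1 mouse pups aged 5 days. Each pup had received EdU, a thymidine analogue that is built into DNA as it is copied, at 3.3 µg per g, and tissue was collected 24 h later, so that the sorted EdU-positive cells had passed through DNA synthesis within that time or descended from cells that had. Of H3K4me3, which lies at promoters that are active or held ready, there was 1 library, and of H3K27me3, which Polycomb proteins place on silenced genes, also 1; strain, age, dose and time are the same for each, no genetic change is given, and no unlabelled cells or input library were compared. The cells were sorted by flow cytometry after Click-iT staining of EdU, and whether pups were pooled is not stated in the sources used here.

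In each cell cycle the origin recognition complex, with Cdc6 and Cdt1, loads the ring of Mcm2 to Mcm7 onto DNA, and geminin blocks a further round of loading. Cdc45 and the GINS complex join the ring to make the active helicase, polymerase alpha with primase starts each strand, and polymerases delta and epsilon extend it on the PCNA clamp. Many of these genes are known targets of E2F transcription factors, which act as cells enter S phase.

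The data are islands, stretches of enrichment called by the authors, each with the height at its summit as a whole number in the authors' own units. An island was assigned to a gene where it overlapped the gene body or 1 kb either side by at least 1 bp. There were 14361 H3K4me3 islands (median height 90, range 4 to 278) and 11341 H3K27me3 islands (median height 12, range 6 to 119). No read counts are given, so depth is unknown and heights are compared within a mark only. Each mark has a lone library, so differences below have no replicate check and no test. A place without an island may still carry the mark. The libraries are of bulk cells, so fewer marked cells and less mark per cell cannot be told apart, nor can it be seen whether marks at 1 place were in the same cells. The labelled tissue was checked by 10 genes of dental mesenchyme, all of which had H3K4me3 (heights 49 to 205) and all of which also had H3K27me3. H3K4me3 was found at 6 of 8 epithelial genes (heights 8 to 58), 4 of 8 endothelial genes (20 to 65), 3 of 8 blood genes (30 to 129) and 4 of 8 glial and nerve genes (17 to 113), with no island at Krt5, Pecam1, Ptprc or Sox10.

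Almost every replication gene carried H3K4me3 and almost none carried H3K27me3. An H3K4me3 island was found at 50 of the 51 genes (98.0%), where 62.7% of all protein-coding genes had one, and Mcm4 was the exception. H3K27me3 was found at 3 of the 51, Cdc45, Pola1 and Pole (5.88%), where 25.2% of all genes had it. These 3 genes carried H3K4me3 as well, and 19.7% of all genes had the pair. Within 1 kb of either gene end, H3K4me3 was found at 47 of the 51 members, against 58.9% of all genes, with Orc1, Rfc1 and Dnmt1 now joining Mcm4. The H3K4me3 islands themselves were of ordinary size. Taking the widest island and the highest summit at each gene, the median width was 4.20 kb (range 1.60 to 14.8 kb) against 4.20 kb over all genes with an island, and the median height was 116.5 (range 44 to 211) against 113. The members had a median length of 16.2 kb and all genes one of 17.3 kb.

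**Figure D1:**
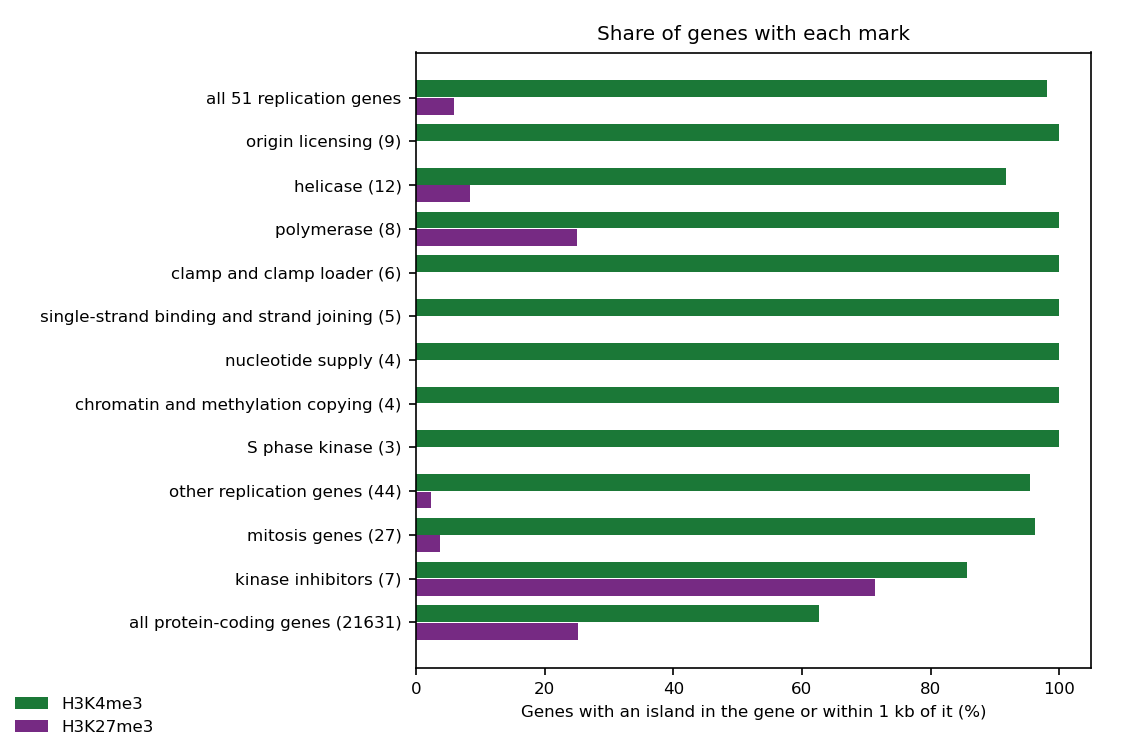
Percent of genes with an H3K4me3 island (green) or an H3K27me3 island (purple) in the gene or within 1 kb of it, for the 51 replication genes, their 8 role groups, 3 comparison lists and all protein-coding genes, with the number of genes in brackets. The replication genes reach 98.0% for H3K4me3 and 5.88% for H3K27me3, against 62.7% and 25.2% of all genes.

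Promoter sequences are shown for the members on which the contrasts below turn. RefSeq promoter windows on GRCm38.p6 (the assembly called mm10), which run from 250 bases before the start to 50 from it, were given for 42 of the 51 members. Gmnn, Mcm4, Gins1, Gins2, Gins4, Prim2, Pole, Rfc2 and Ccne2 have no entry in that table. The windows were searched on either strand for the E2F strings TTTCCCGC, TTTGGCGC, TTTGCCGC and TTTCGCGC, for CCAAT, for CHR (the cell cycle homology region, TTTGAA) and for the GC box GGGCGG. Matches that overlap each other were counted separately, and none of the 24 E2F matches in the members overlapped a GC box. The 250 bases before the start are printed, 5′ to 3′ along the gene, with E2F and CCAAT strings in capitals. The first set holds helicase genes with E2F strings and Pola1, which has one too. The places are Mcm5 (chr8:75109259-75109508, plus strand), Mcm6 (chr1:128359706-128359955, minus strand), Mcm7 (chr5:138171884-138172133, minus strand) and Pola1 (chrX:93632156-93632405, minus strand); the 3 Mcm genes were picked after their matches were seen.
Mcm5: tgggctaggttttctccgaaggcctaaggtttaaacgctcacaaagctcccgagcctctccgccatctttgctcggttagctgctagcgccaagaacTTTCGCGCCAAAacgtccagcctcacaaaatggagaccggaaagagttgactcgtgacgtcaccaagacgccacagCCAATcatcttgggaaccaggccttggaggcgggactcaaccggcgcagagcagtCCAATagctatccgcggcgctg
Mcm6: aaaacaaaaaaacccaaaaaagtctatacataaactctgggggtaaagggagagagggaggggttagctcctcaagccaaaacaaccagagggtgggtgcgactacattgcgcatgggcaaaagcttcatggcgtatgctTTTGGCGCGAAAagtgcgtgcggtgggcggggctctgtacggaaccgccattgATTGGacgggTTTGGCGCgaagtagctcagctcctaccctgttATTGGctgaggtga
Mcm7: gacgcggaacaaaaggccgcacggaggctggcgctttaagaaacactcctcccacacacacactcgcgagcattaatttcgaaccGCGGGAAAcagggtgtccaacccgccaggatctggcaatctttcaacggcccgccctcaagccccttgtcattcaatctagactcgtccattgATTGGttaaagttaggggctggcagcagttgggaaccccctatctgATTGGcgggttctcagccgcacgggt
Pola1: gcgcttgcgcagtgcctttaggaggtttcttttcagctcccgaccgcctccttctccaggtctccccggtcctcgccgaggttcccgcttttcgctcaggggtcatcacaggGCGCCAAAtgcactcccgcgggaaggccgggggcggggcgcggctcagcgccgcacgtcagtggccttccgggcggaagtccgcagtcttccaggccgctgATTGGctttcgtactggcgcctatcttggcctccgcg
In Mcm6 the run of capitals that ends 99 bases before the start holds a pair of E2F matches that share letters, and a further match ends 40 bases before the start. Mcm5 has such a joined pair ending 142 bases before the start. Mcm7 has a match ending 158 bases before it, and Pola1 one ending 131 bases before it. In each of the 3 Mcm genes CCAAT strings, the core of sites for the factor NF-Y, follow downstream, the last of them ending 18, 10 and 22 bases before the start.

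The second set has no E2F string in these 250 bases. It holds Cdc45 (chr16:18811973-18812222, minus strand), whose far end carried H3K27me3, and the members whose H3K4me3 summits were the highest in their role groups, Cdt1 (chr8:122567765-122568014, plus strand; highest of those with an entry), Mcm2 (chr6:88898781-88899030, minus strand), Pole2 (chr12:69228191-69228440, minus strand) and Tk1 (chr11:117826015-117826264, minus strand). Pcna (chr2:132253181-132253430, minus strand) was added after its values were seen, because its start had no island. For Pole2 and Tk1 the highest summit lay past the far end, on a neighbour, and the heights at the starts printed here were 88 and 41, the latter the lowest start summit of all members.
Cdc45: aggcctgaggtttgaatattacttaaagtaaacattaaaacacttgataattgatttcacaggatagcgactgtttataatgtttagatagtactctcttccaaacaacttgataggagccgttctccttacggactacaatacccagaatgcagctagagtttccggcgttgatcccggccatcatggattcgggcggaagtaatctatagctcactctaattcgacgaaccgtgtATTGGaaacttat
Cdt1: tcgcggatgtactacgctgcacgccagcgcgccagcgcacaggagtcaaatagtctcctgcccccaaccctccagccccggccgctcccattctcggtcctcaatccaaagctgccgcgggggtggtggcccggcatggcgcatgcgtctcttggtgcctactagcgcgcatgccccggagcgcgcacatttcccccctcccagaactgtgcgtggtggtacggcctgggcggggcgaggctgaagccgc
Mcm2: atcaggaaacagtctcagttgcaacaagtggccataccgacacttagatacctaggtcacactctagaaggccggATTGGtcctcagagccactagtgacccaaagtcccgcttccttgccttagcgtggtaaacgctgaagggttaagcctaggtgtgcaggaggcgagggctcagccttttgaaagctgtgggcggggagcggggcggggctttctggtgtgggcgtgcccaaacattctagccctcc
Pole2: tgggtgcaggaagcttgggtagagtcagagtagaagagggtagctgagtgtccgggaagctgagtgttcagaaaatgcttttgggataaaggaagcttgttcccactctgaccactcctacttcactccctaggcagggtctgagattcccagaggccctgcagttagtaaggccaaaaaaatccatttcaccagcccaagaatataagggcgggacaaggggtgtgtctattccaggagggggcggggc
Tk1: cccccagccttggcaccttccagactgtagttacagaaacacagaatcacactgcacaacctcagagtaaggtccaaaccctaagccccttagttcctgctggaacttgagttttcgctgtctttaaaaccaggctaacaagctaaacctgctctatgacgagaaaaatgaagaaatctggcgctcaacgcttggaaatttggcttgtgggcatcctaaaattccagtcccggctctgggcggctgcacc
Pcna: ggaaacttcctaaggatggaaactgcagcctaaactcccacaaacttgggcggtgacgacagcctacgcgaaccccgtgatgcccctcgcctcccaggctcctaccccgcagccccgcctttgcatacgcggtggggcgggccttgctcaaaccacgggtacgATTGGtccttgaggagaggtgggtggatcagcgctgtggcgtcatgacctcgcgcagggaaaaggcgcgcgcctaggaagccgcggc
Cdt1 and Pole2 each have 1 E2F string in the last 50 bases of the window, after the start. Cdc45 has a CCAAT string ending 9 bases before the start and Pcna one ending 83 bases before it. The letters are matches only, and a window without them says nothing of the factor.

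E2F strings were found in the promoter windows of 17 of the 42 members (40.5%), and 3.33% of all 17274 protein-coding genes with an entry had one. Among genes that carried H3K4me3 the share was 4.64%. By role they were at 4 of 8 licensing genes (Orc1, Orc3, Cdc6 and Cdt1), 5 of 8 helicase genes (Mcm3, Mcm5, Mcm6, Mcm7 and Gins3) and 3 of 6 polymerase genes (Pola1, Pold1 and Pole2). They were at 0 of 4 nucleotide supply genes. The other members with a match were Rfc3, Lig1, Uhrf1, Dnmt1 and Cdk2. With the first T of each string left off, 28 of the 42 members had a match, against 13.9% of all genes, and Rrm1 and Rrm2 of the nucleotide supply genes were among them. CCAAT was found at 27 members (64.3%, against 42.7% of all genes), including all 8 helicase genes with an entry. The GC box was found at 33 (78.6%), against 49.8% of all genes and 69.8% of those with H3K4me3. CHR strings were at 6 members (14.3%), near the 18% of all genes. The members' windows had a median of 24.5 CG steps (range 8 to 41), genes with H3K4me3 one of 22 and all genes one of 15; the part of this base composition in the shares of strings that hold CG was not tested.

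**Figure D2:**
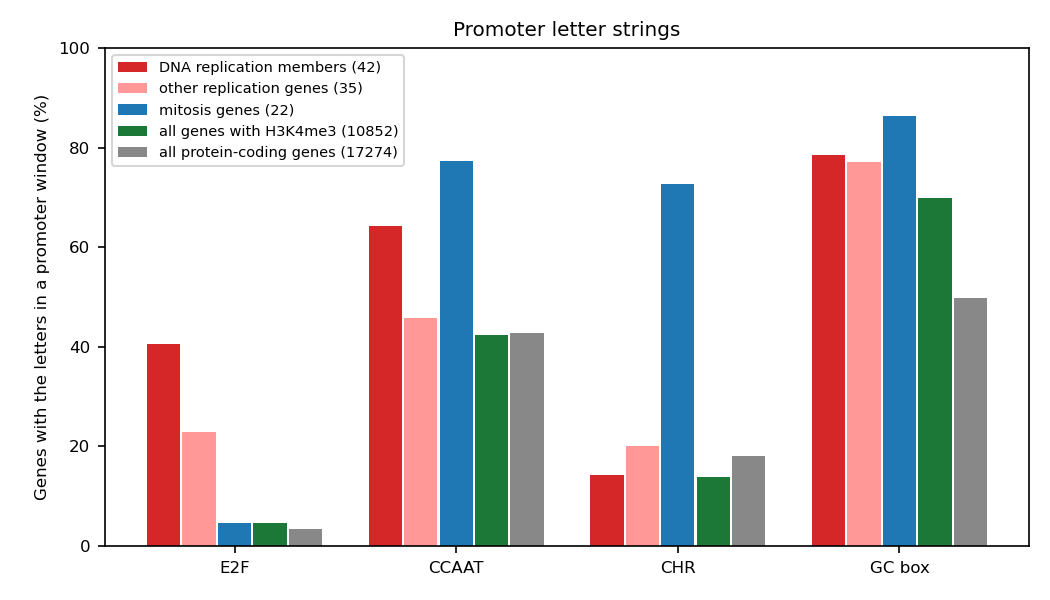
Percent of genes with each string in a promoter window, for the 42 members with an entry, 35 other replication genes, 22 mitosis genes, all genes with H3K4me3 and all protein-coding genes. The E2F bar of the members stands at 40.5% against 3.33% of all genes, and the CHR bar is high for the mitosis genes alone among these sets.

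Where the direction of the gene was known, H3K4me3 lay at its start. An island came within 1 kb of a start at 41 of the 42 members with an entry, where 59.4% of all genes had one, and Pcna was the exception. H3K27me3 came within 1 kb of a start at 0 of the 42, against 19.1% of all genes. Pole, which had H3K27me3 by a gene end, has no entry, so whether that end is its start was not known here. The start islands reached a median of 1.58 kb upstream (range 0.208 to 8.22 kb) and 2.81 kb downstream (0.940 to 11.2 kb). They were longer downstream at 32 of 41 members (78.0%), as at 76.5% of all genes with such an island. The summit lay downstream of the start at 33 of 41 (80.5%), against 81.9%, at a median of 126 bp, against 176 bp. In these respects the members looked like other genes.

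At 4 members the island lay wholly inside the gene, over a start of its own that is not the outermost end. The H3K4me3 island of Orc1 covered a start 3.75 kb into the gene, that of Rfc1 a start 2.98 kb in, and that of Orc4 starts 2.67 to 3.64 kb in. Dnmt1, the methyltransferase that copies DNA methylation onto the new strand, has 3 listed starts. Its island (chr9:20948201-20953599, height 128) covered those 6.91 and 7.27 kb into the gene and left the outermost start bare.

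**Figure D3:**
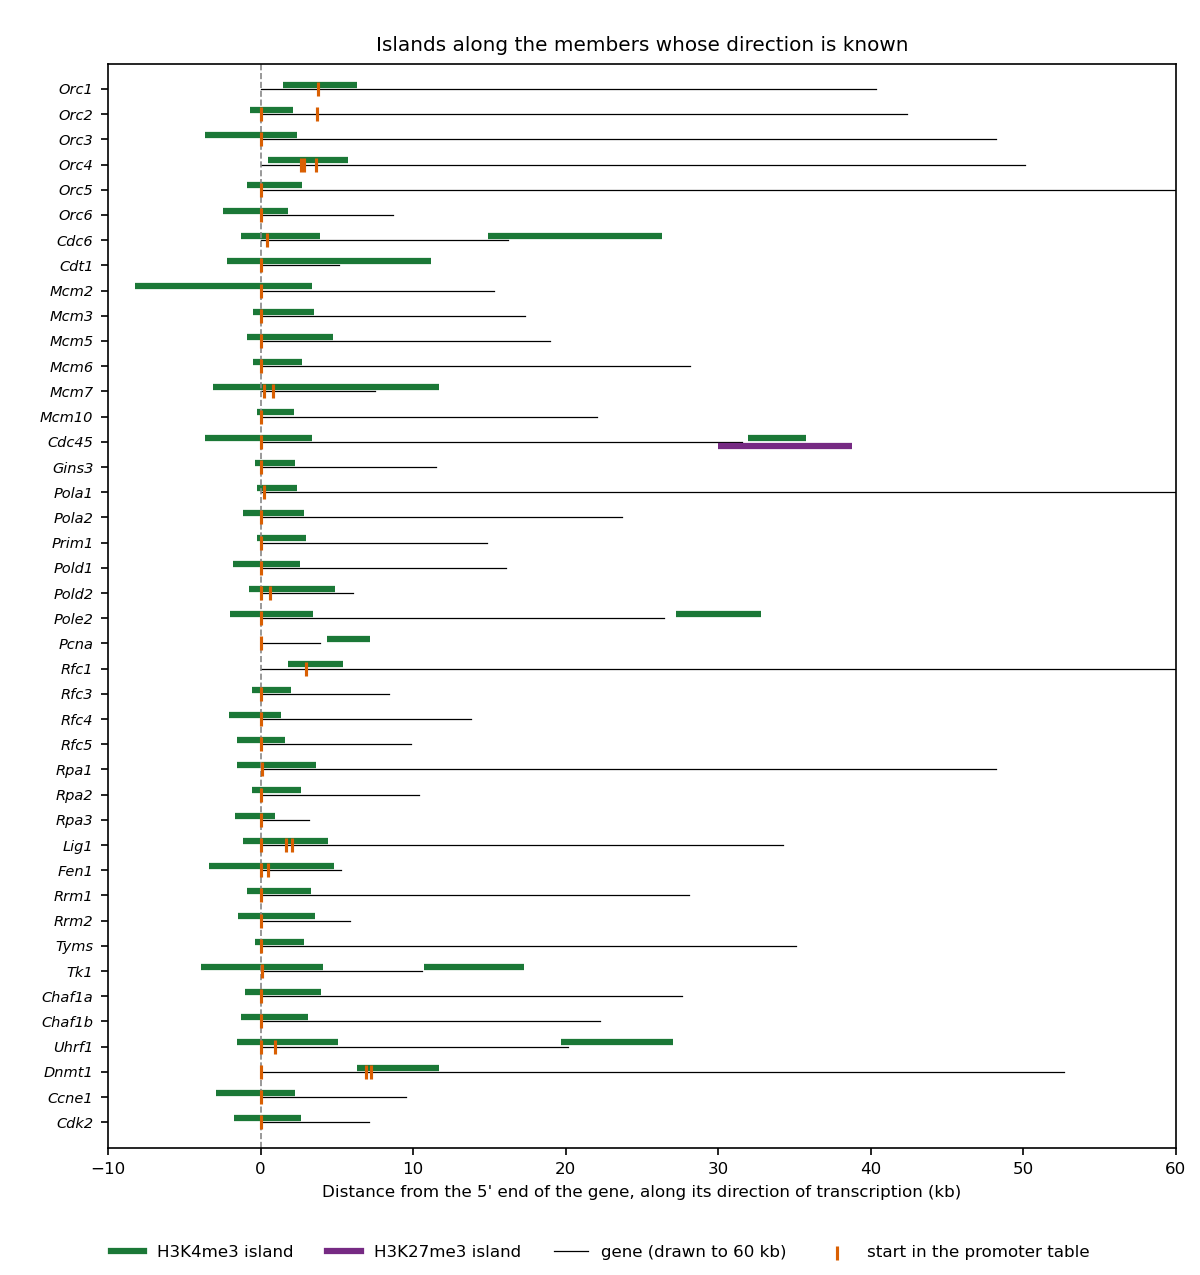
Islands of H3K4me3 (green) and H3K27me3 (purple) along the 42 members whose direction is known, drawn as distance in kb from the 5′ end of the gene along its direction of transcription, with starts of the promoter table as orange ticks and genes as black lines cut at 60 kb. Green bars cover a start at 41 genes, and Pcna has its bar past the far end only. The purple bar in view lies across the far end of Cdc45 (those of Pola1 lie beyond the drawn range).

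Among the origin licensing genes all 9 carried H3K4me3 and 0 carried H3K27me3. The 6 genes of the origin recognition complex had heights of 110 at Orc1, 134 at Orc2, 109 at Orc3, 123 at Orc4, 68 at Orc5 and 151 at Orc6. Orc5 stood lowest, and the others lay within 109 to 151. The loader gene Cdc6 had a start island of 5.20 kb with a height of 74, and a second of 11.4 kb at its far end over Rara with a height of 52. Cdt1, whose product brings the Mcm ring to the origin, lay wholly under an island of 13.4 kb (chr8:122565801-122579199, height 168), which ran on over Aprt and Galns. Gmnn, which encodes geminin, the inhibitor of Cdt1, had the highest summit of the group at 178, under an island of only 3.60 kb. Gmnn and Cdt1 were thus the tallest pair of the group, with islands of very different width.

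The helicase genes carried H3K4me3 at 11 of 12. In the Mcm ring the heights were 147 at Mcm2, 108 at Mcm3, 117 at Mcm5, 137 at Mcm6 and 116 at Mcm7, with no island at Mcm4. Widths differed more than heights, from 3.20 kb at Mcm6 and 4.0 kb at Mcm3 to 11.6 kb at Mcm2 and 14.8 kb at Mcm7. The wide islands reached into neighbours: that of Mcm7 (chr5:138160401-138175199) covered the whole gene and starts of Cops6 and Ap4m1. That of Mcm2 extended 8.22 kb upstream over the start of Tpra1, and its summit lay at -3685 bp from the start of Mcm2, inside Tpra1. Mcm10, whose product binds the helicase, had 2.40 kb with a height of 94, and Cdc45 had 7.0 kb at its start with a height of 100. The GINS subunit genes had heights of 95 at Gins1, 111 at Gins2, 123 at Gins3 and 124 at Gins4. Gins1 had the narrowest island of all members, 1.60 kb.

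Mcm4 lay in a stretch of 266 kb without H3K4me3 islands (chr16:15595000-15861400), which also held the whole of Prkdc, the gene of the DNA-dependent protein kinase. The nearest H3K4me3 islands were 28.9 kb away at Ube2v2 (height 119) and 224 kb away at Mzt2 (height 85). The nearest H3K27me3 island was 570 kb away, so no island of either mark was called at the gene.

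The polymerase genes all carried H3K4me3. The heights were 47 at Pola1 and 90 at Pola2, the subunits of polymerase alpha, 44 at Prim1 and 93 at Prim2, the primase subunits, 78 at Pold1 and 87 at Pold2 of polymerase delta, and 108 at Pole and 88 (start island) at Pole2 of polymerase epsilon. Each of these lies below 113, the median of all genes with an island. The quartiles over those genes were 64 and 153, and only Pola1 and Prim1 lay under the lower one. At the starts alone, the 6 polymerase genes with an entry ranged from 44 to 90 (median 82.5) and the 8 helicase genes from 94 to 147 (median 116.5). These sets did not overlap, in a comparison added after the data were seen. All genes with a start island spanned 6 to 278 (median 113), so the helicase median was an ordinary one. The 147 is that of Mcm2, whose summit lay inside Tpra1. The start islands of Cdc45 and Mcm7 also covered starts of Ufd1 and Ap4m1. Origin licensing genes ranged from 68 to 168 at their starts (median 116.5) and overlapped the polymerase and the helicase genes. With the genes that have no entry counted too, Pole at 108 stood among the helicase genes. Pola1 is on the X chromosome, where H3K4me3 islands had a median height of 44, and on the autosomes alone the polymerase median, with every island counted, was 90.0 rather than 88.5. Widths of the polymerase genes ran from 2.60 kb at Pola1 to 5.60 kb at Pold2, with 5.40 kb for the start island of Pole2.

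H3K27me3 was found at 2 of the 8 polymerase genes (25%), a share like that of all genes (25.2%). At Pole, the catalytic subunit of the leading-strand polymerase, an H3K27me3 island of 4.0 kb (chr5:110282201-110286199, height 32) ended 120 bp outside the gene and shared 1.60 kb with the H3K4me3 island at that end; Pxmp2 lies under each of them. The body of Pola1, 328 kb long, held 6 H3K27me3 islands with heights of 8 to 13, which covered 7.75% of it. A further island (11 kb, height 9) lay 1.81 kb outside the gene on the side of its start, beyond the limit used here, and one of 8.0 kb with a height of 32 lay 1.93 kb outside Pole. The third gene with the mark was in the helicase group: at Cdc45 an island of 8.80 kb (chr16:18773201-18781999, height 63) covered 4.93% of the gene at its far end and lay over Cldn5, which encodes a tight junction protein of endothelium. An H3K4me3 island with a height of 19 lay wholly inside it. At Pole and Cdc45 the H3K27me3 island thus lay on a neighbouring gene.

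Just outside the 1 kb limit, among members without the mark, H3K27me3 islands lay 1.74 kb from Pola2 (8.0 kb wide, height 25, no gene under it) and 2.35 kb from Pold1 (15 kb, height 23, over Mybpc2 and Spib). Gins3 was the next unmarked member at 4.36 kb, with a height of 9. Of the 48 members without the mark, these 3 had an island within 5 kb, where 802 of all 16184 unmarked genes had one. At 29 of the 48 (60.4%) none lay within 50 kb, as at 64.9% of all unmarked genes. The median distance was 89.6 kb for the members and 97.0 kb for all unmarked genes.

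The 4 nucleotide supply genes all carried H3K4me3 and none carried H3K27me3. Rrm1 and Rrm2 encode the subunits of ribonucleotide reductase, which makes deoxyribonucleotides, and had heights of 74 and 149 with widths of 4.20 and 5.00 kb. Tyms, which encodes thymidylate synthase, had 3.20 kb with a height of 94. Tk1, the gene of thymidine kinase, had 8.0 kb at its start with a height of 41. A second island past its far end had a height of 191 and lay on Syngr2. The group's median height was therefore 84.0 at the starts and 121.5 with every island counted. Rrm2 stood well above its partner Rrm1, and the range at the starts, 41 to 149, spanned the whole range of the polymerase group, though not that of the licensing genes.

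Of the clamp genes, Pcna had no island at its start or in its body. Its H3K4me3 island (chr2:132246001-132248799, height 72) lay 487 bp past the far end, over the start of Tmem230, and the next, with a height of 176, lay 9.62 kb away at Cds2. No H3K27me3 island was nearer than 292 kb. The genes of the clamp loader had heights of 119 at Rfc1, 122 at Rfc2, 62 at Rfc3, 138 at Rfc4 and 126 at Rfc5, and all had narrow islands of 2.60 to 3.60 kb. Only Rfc3 stood apart, lower than the other subunits.

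The genes of the single-strand DNA binding complex were close to each other in height, at 129 for Rpa1, 127 for Rpa2 and 106 for Rpa3. Lig1, the ligase that joins Okazaki fragments, had 5.60 kb with a height of 79, and Fen1, the flap nuclease that trims them, had 8.20 kb with a height of 122 shared with Tmem258. Among the genes that restore chromatin, the histone chaperone genes Chaf1a and Chaf1b had heights of 101 and 154, and Uhrf1, whose product recognises hemimethylated DNA, one of 109 at its start. The S phase kinase genes had heights of 148 at Ccne1 and 163 at Ccne2, which encode cyclins E1 and E2, and of 110 at their partner Cdk2, just under the median of all genes with an island. None of these genes carried H3K27me3.

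**Figure D4:**
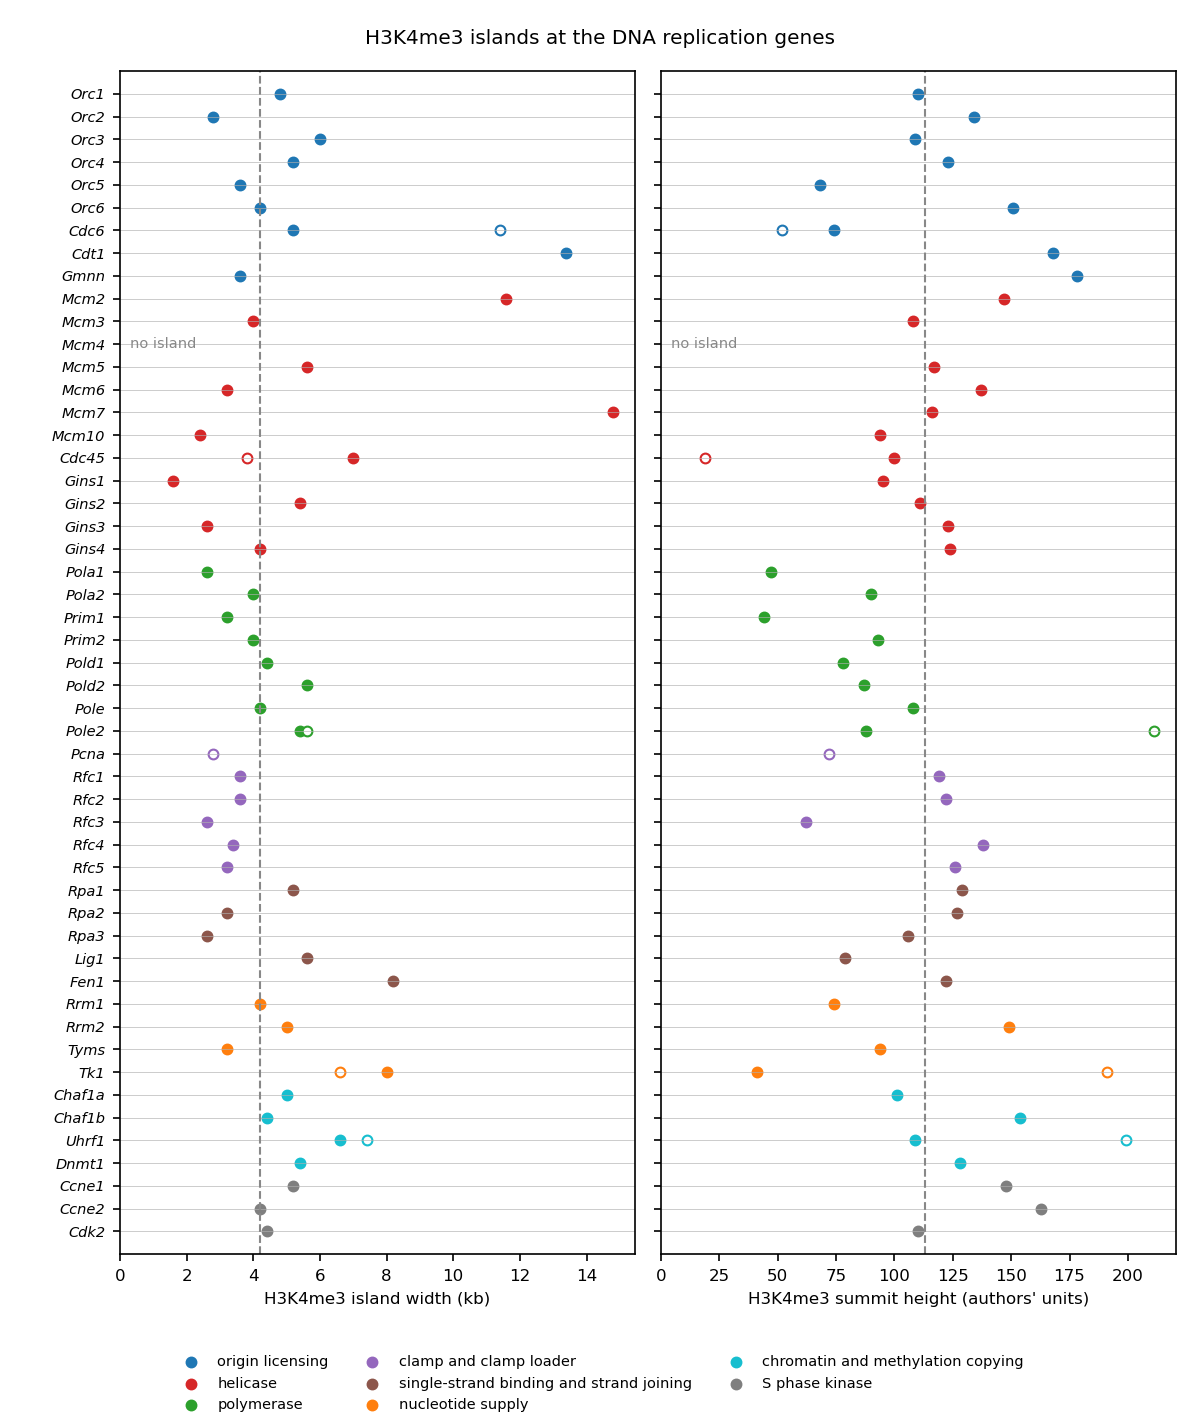
Width in kb (left) and summit height in the authors' units (right) of each H3K4me3 island at each member, coloured by role group; open circles are islands that cover no start of the member, and dashed lines are the medians of all genes with an island, 4.20 kb and 113. The polymerase genes lie left of the height line apart from an open circle at Pole2 (211), and Mcm4 has no point.

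Several tall or wide islands in the list belonged in part to neighbours. There were 55 H3K4me3 islands at the 50 genes, 1 at each of 45 genes and 2 at each of 5. Of these islands, 6 covered no start of a member with a known direction, at Cdc6, Cdc45, Pole2, Pcna, Tk1 and Uhrf1, and all 6 reached another gene. The 3 highest summits of the list were among them: 211 past the far end of Pole2, over the start of Dnaaf2, 199 at the far end of Uhrf1, over Kdm4b, and 191 at Tk1. At 20 of 50 members (40%) an H3K4me3 island reached another protein-coding gene, where 33% of all genes with H3K4me3 had such an island. Their islands had a median width of 5.60 kb, against 3.60 kb at the 30 members whose island reached no other gene, and median heights of 113 and 118. The widest that reached no other gene was the start island of Uhrf1, 6.60 kb.

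Another gene started on the other strand, within 1 kb upstream or downstream of the start, at 10 of 42 members (23.8%), against 9.73% of all genes. The partners were Prpf38a at Orc1, Rars2 at Orc3, Mbd5 at Orc4, Ap4m1 at Mcm7, Ufd1 at Cdc45, Smyd4 at Rpa1, Umad1 at Rpa3, Zswim9 at Lig1, Tmem258 at Fen1 and Afmid at Tk1. At such a start a single island serves 2 genes, and its height cannot be assigned to either. Of these 10 members, the H3K4me3 heights at the start ran from 41 at Tk1 to 129 at Rpa1, below the tallest start islands of the list, 168 at Cdt1 and 154 at Chaf1b.

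The pattern of marks was also looked at in 44 further replication genes, such as Cdc7 and Dbf4, the kinase that fires origins, and Top2a, the topoisomerase that untangles copied DNA. H3K4me3 was found at 42 of them (95.5%), with a median height of 128, and was missing at Recql4 and Slbp. H3K27me3 was found at 1, Chtf18, with a height of 24 and not at its start. Their heights ran from 29 at Shmt1 to 229 at Mcmbp. Cdc7 had 148, Dbf4 152 and Top2a 129. Of 27 mitosis genes, 26 carried H3K4me3 (Aurka did not) and 1 carried H3K27me3, Bub3. The contrast was with 7 genes of cyclin-dependent kinase inhibitors, which hold back the same cycle. Of these, 6 carried H3K4me3, where 62.7% of all genes did. H3K27me3 was at 5, namely Cdkn1a, Cdkn1c, Cdkn2a, Cdkn2b and Cdkn2c, where 25.2% of all genes had it. Cdkn2a and Cdkn2b had the same H3K27me3 width and height, 50.8 kb and 73, so 1 island may be counted for both. Cdkn2c had a height of 13, near the median of 12 of all H3K27me3 islands. The difference between lists was not tested.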

How the data were processed

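H3K4me3 and H3K27me3 were measured by ChIP-seq, with 1 library each, in EdU-positive incisor pulp cells. BWA, SICER and the build mm10 are named in the submitters' processing notes; no source used here gives versions or SICER settings, and the series' design text says that no input library was used. The authors deposited islands and, per the file headers, a summit for each, whose height is a whole-number score of unknown scaling between libraries. All summits lay inside the island of the same row. All widths were 1 bp short of a multiple of 200 bp, which sets the resolution.

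Gene positions were those of RefSeq on GRCm38.p6; starts and strands came from a RefSeq promoter table with entries for 42 members. Overlaps were computed in Python 3.11.15 with pandas 2.3.3 and NumPy 2.4.6, after testing on simulated data. Counts, medians and ranges are set beside those of all protein-coding genes. No test was made, since there is 1 library per mark and genes are not replicates. The members and lists were chosen with earlier results of these data known. All 51 members are named; of other lists, genes without H3K4me3 or with H3K27me3, up to 6 of each in list order, and some others picked after their values were seen (Cdc7, Dbf4, Top2a, Shmt1, Mcmbp). Promoters were printed for members without H3K4me3, with H3K27me3 or with the highest summit of 4 role groups, where an entry was given; those of Pcna, Mcm5, Mcm6 and Mcm7 were added after their values were seen. Positions are 1-based. The comparison by starts was added after seeing the data. Signal tracks were not used here, and 1 result is not reported here.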

Additional observations from a re-analysis of the deposited data

How the results depend on the processing

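No paired analysis was possible because the result comes from no test and each mark has 1 library. Of 155 values recomputed under 12 alternatives, 146 stayed within 1.5 times the value reported and 9 did not. Members with H3K27me3 were 5 with a window of 2.5 kb (Pold1 and Pola2 added), against 26.7% of all genes. They were 1 of the 27 members with no other gene within 1 kb, against 26.1% of all 14708 such genes. Within 1 kb of a start they were 0 of 42, against 19.1% of all genes, with Pole not counted for want of an entry. With no other gene within 1 kb, H3K4me3 was at all 27 members, against 55.1% of all such genes. Among them were 4 licensing genes and 4 polymerase genes, counts that fell because fewer members entered. The median width of these licensing genes was 7.5 kb, with the widest island of each gene counted. At Cdc6 that is the island of 11.4 kb at its far end over Rara, whereas its start island has 5.20 kb. Among the 50% of islands with the higher summits, 39 of 51 members (76.5%) had H3K4me3, against 39.4% of all genes, with 3 of 8 polymerase genes. E2F strings without their first T were at 28 of 42 members (66.7%), against 13.9% of all genes. Depth is unknown, so a missing island, as at Mcm4 or the start of Pcna, sets no limit on the mark there.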

Other observations

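The promoter strings of the replication genes differed from those of the genes that act later in the cycle. CHR, the string TTTGAA, was found in the windows of 16 of 22 mitosis genes (72.7%), 6 of 42 replication members (14.3%) and 18% of all genes. E2F strings were found at 1 of the 22 mitosis genes (4.55%) and at 17 of the 42 replication members (40.5%). The further replication genes had E2F strings at 8 of 35 (22.9%) and CHR at 7 (20%). CCAAT was found at 17 of the 22 mitosis genes and at 27 of the 42 members. The lists carried H3K4me3 at similar shares, 96.3% of the mitosis genes and 98.0% of the members, with median heights of 118.5 and 116.5, so the marks did not part what the letters parted. These are matches of letters, and the difference between the lists was not tested.

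At Bub3, a spindle checkpoint gene, an H3K27me3 island of 34.2 kb with a height of 104 came within 1 kb of the start. An H3K4me3 island did so too, and at this gene the widest had only 2.60 kb and the highest summit was 124. None of the replication members had H3K27me3 as high as 104, the highest being 63 at Cdc45.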
